A study of Mus musculus with 14 samples.

Results

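The regions described here are 231 of 48148 sites of open chromatin in mouse liver that had a DNase-seq peak in untreated mice without a pituitary and again 240 min after 1 pulse of growth hormone (GH), but in no library taken 30 or 90 min after GH. Peaks of 14 libraries on the autosomes and X were merged where they shared at least 1 bp, and each region was scored as called wherever a library's own peak touched it. Members were called in both untreated hypophysectomized (hypox) male libraries and in both libraries of hypox males at 240 min, and in none of the 4 libraries at 30 and 90 min. They were thus selected on calls in all 8 male libraries, so that these calls, and the peak values behind them, describe the regions and test nothing.

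All mice were CD-1 (ICR) mice, 7 weeks old, and each library pooled DNase I fragments of 3 livers, except 1 hypox female library made from 2 livers. The hypox mice had been operated on by the supplier. Hypox males at 30, 90 and 240 min had received 1 intraperitoneal injection of recombinant rat GH at 125 ng per g body weight, and there were 2 libraries for each time. The 2 libraries of untreated hypox males received no GH, and the labels do not say whether those mice were given the vehicle. The other groups were 2 libraries of hypox females without GH and 4 of pituitary-intact females. Intact males were not analysed here. Removal of the pituitary takes away all its hormones, among them those that drive the thyroid and adrenal glands, and only GH was given back. Both untreated hypox male libraries carry the title code G103, the GH-treated males and hypox females carry G92, intact female pools 1 and 2 carry G92 and pools 3 and 4 carry G93. The labels do not explain the code, so GH and code cannot be told apart between untreated and treated males.

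DNase I cuts DNA where nucleosomes are displaced, so its cut sites collect at active promoters and at enhancers bound by transcription factors. In hepatocytes, GH binds its receptor and activates the kinase JAK2, which phosphorylates the transcription factor STAT5. STAT5 then enters the nucleus, binds DNA and within minutes changes the accessibility and transcription of GH-responsive genes. Its activation fades within hours after a single pulse. Open chromatin in liver is held by hepatocyte factors such as HNF1, HNF4A, HNF6, FOXA and C/EBP proteins and by nuclear receptors.

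The sequences that follow give 8 of the regions as 200 bp of mm9 sequence around the summit, plus strand, 5' to 3'. The first 5 ranked highest by the fold that the authors' peak caller gave, the Nr5a2 region was the only one linked to a gene of the lists used here, and the Cyp1a2 and Nav2 regions were chosen after their values were seen. Capitals mark matches to the short consensus sequences described further on, read on either strand.
Ank3 intron, chr10:69379672-69379871: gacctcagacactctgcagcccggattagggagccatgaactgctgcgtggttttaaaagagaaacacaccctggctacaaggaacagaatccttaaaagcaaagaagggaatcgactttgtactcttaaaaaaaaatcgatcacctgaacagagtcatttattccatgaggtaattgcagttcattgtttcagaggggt
Region near Npr3, chr15:11655933-11656132: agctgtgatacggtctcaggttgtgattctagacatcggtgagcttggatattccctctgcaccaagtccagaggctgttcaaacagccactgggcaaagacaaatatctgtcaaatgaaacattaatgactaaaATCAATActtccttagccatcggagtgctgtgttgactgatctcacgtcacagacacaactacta
Plb1 intron, chr5:32584839-32585038: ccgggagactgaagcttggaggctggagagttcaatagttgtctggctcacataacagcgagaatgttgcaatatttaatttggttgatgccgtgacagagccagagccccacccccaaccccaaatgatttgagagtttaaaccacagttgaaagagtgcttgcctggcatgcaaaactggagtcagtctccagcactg
Nckap5 intron, chr1:128569965-128570164: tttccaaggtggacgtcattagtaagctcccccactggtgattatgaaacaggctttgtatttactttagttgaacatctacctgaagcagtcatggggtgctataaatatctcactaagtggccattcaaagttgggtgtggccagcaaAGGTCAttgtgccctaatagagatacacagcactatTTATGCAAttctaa
Region near Krr1, chr10:111257149-111257348: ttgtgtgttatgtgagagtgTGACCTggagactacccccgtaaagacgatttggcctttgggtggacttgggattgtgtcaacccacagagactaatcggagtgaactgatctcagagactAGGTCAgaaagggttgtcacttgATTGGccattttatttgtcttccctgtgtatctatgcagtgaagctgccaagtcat
Nr5a2 promoter, chr1:138856141-138856340: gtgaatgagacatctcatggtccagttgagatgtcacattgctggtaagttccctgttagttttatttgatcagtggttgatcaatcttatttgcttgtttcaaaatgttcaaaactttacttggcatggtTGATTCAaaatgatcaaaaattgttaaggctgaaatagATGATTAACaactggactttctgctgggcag
Cyp1a2 promoter, chr9:57531465-57531664: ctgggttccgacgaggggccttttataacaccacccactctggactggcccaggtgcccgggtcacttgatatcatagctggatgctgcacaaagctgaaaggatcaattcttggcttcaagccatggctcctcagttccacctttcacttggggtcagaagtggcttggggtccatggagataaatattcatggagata
Nav2 intron, chr7:56732825-56733024: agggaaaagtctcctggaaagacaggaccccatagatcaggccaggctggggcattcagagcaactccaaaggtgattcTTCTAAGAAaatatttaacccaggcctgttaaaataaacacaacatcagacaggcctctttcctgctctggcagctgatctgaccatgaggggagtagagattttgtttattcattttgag
The letters differ from region to region, and 3 of the 8 windows held no match to any consensus searched. The capitals in the Npr3 neighbour are the HNF6/CUX consensus, and those in the Nav2 intron are the STAT consensus. In the Nckap5 intron they are the nuclear receptor hexamer and the C/EBP consensus. Near Krr1 they are the hexamer on each strand and the NF-Y consensus, and in the Nr5a2 promoter the AP-1 and HNF1 consensuses.

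The 231 regions were 0.48% of all regions, and 1.5% of the 15443 regions called in both untreated and both 240 min libraries. Most of the 15443 regions were also detected early: 12571 had a call in all 4 libraries at 30 and 90 min, 1394 in 3, 790 in 2, 457 in 1 and 231 in 0. Membership depended on list length, the threshold and single libraries. With lists of equal length 214 regions met the rule, and 56 of them (24.2% of the 231) were among the members here, while calls of −log10 p of at least 10 left 35. The number was 359 without hypox male pool 1, 362 without pool 1 of 30 min, 395 without pool 1 of 90 min and 852 without pool 2 of 240 min. That last library had the shortest list of the 8 male libraries, with 18882 peaks. All 14 libraries together spanned 13078268 to 33700120 tags and 17691 to 35851 peaks. Of 16 hepatocyte genes, 11 had a linked region called in all 14 libraries. No other list was counted this way, so this number does not check the tissue. A region called in all 8 male libraries was linked to 14 of the 16, and to 9 of 10 ubiquitous genes.

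The members were modest peaks. The authors' fold, the enrichment of a peak's summit over its local background, had a median of 4.89 (range 2.45 to 9.43) over the members in hypox male pool 1 and 4.39 (2.12 to 10.1) in pool 2. At 240 min it was 6.05 (2.64 to 13.7) in pool 1 and 5.0 (2.48 to 8.33) in pool 2. Regions called in all 8 male libraries had median folds of 8.05, 7.85, 10.3 and 7.67 in the same libraries. Within the lists that called them, members sat at a median percentile of 30.0 and 31.8 in the untreated pools and 38.9 and 23.6 in the 240 min pools. For regions called in all 8 male libraries, these percentiles were 72.2, 75.1, 76.1 and 65.0. Averaged over the 4 lists, 30 of the 231 members ranked above the 50th percentile.

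**Figure D1:**
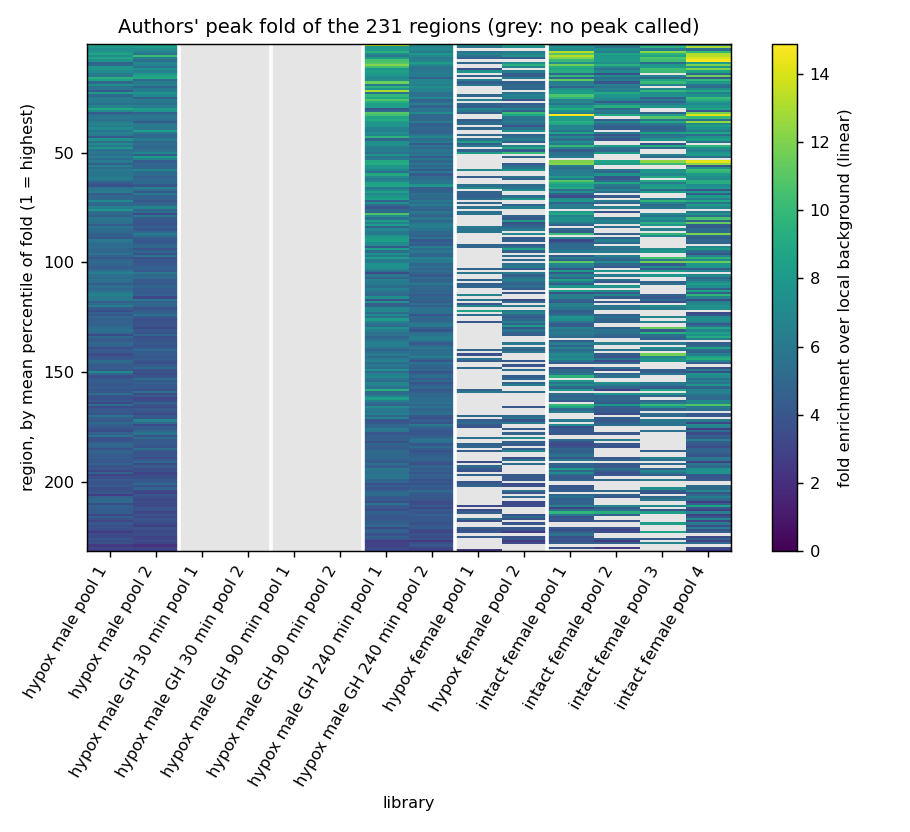
Heatmap of the authors' peak fold, a linear enrichment over local background, with 1 row for each of the 231 regions, ordered by mean percentile of fold in the 4 lists that define them, and 1 column for each library. Grey cells have no peak, which the selection fixed for the 4 libraries at 30 and 90 min; hypox female pool 1 has the most grey cells among the female libraries, with 94 of the 231 regions called.

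Rank rose step by step with the number of early libraries that called a region. Among the 15443 regions, the median percentile in hypox male pool 1 was 30.0 with 0 early calls, 33.2 with 1, 36.9 with 2, 45.1 with 3 and 72.2 with 4. The same medians in 240 min pool 2 were 23.6, 22.5, 25.2, 31.3 and 65.0, where the first step falls. Width followed the same order, from a median of 553 bp for members to 804 bp for regions with 4 early calls. A width spans all peaks merged into the region, so each further call can only keep or widen it. This order is therefore partly built in.

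**Figure D2:**
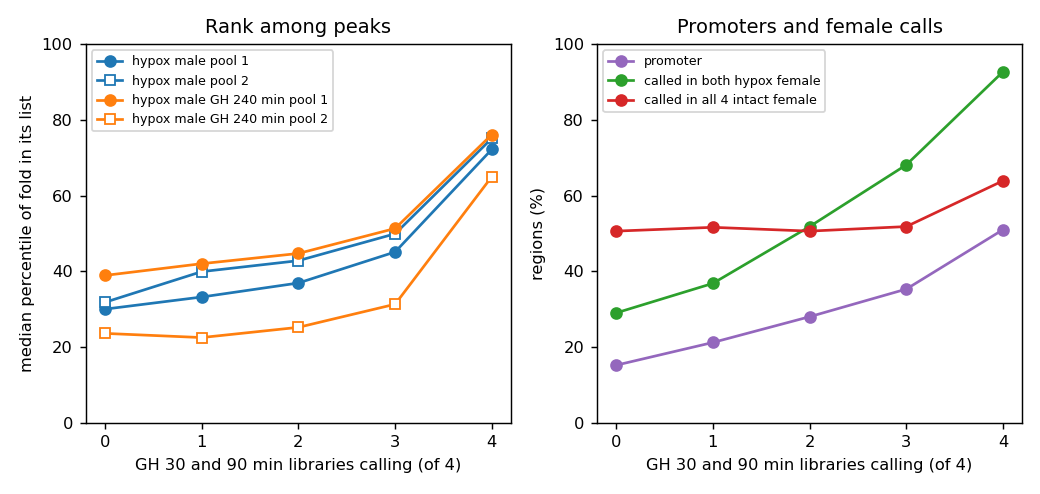
Regions called in both untreated and both 240 min libraries, split by how many of the 4 libraries at 30 and 90 min called them; 0 marks the 231 members. The left panel gives the median percentile of the authors' fold in each of the 4 defining lists, and the right panel gives the percent of regions in promoters, called in both hypox female libraries and called in all 4 intact female libraries; the promoter share climbs from 15.2 to 51.0% and the hypox female share from 29.0 to 92.7%, while the intact share stays between 50.6 and 51.8% up to 3 early calls and is 63.9% at 4.

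The 3 members nearest to the threshold had a lowest −log10 q of 1.94 in an intron of Fbxo42, which encodes a substrate-binding subunit of a ubiquitin ligase, 2.35 in an intron of Galnt2, a sugar transferase of O-glycosylation, and 2.58 at 24.9 kb from the start of Fabp6, a bile acid binding protein. To 2 decimals a member in an intron of Rhpn2 also had 2.58. Just outside, 457 regions met the rule except for 1 call at 30 or 90 min, with a median −log10 q of 5.98 for that call. Regions that lacked 1 of the required calls are not among these. The weakest of these calls were 2.18 in an intron of Frmd4b at 90 min, 2.23 between genes near Ero1lb at 30 min and 2.23 in an intron of Eepd1 at 90 min, each in pool 1 of its time. Among members the median of the lowest −log10 q was 4.91, and 12 of 231 reached 10 in all 4 defining lists.

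Absence from the separate early libraries was not absence from the pooled reads of the same libraries. The authors also deposited 1 combined list per group, called on 31726376 tags at 30 min and 32122131 tags at 90 min. Of the 231 members, 94 (40.7%) had a peak in the combined 30 min list, against 57.0% of all regions. In the combined 90 min list 102 (44.2%) had one, against 59.3% of all regions. All regions include those that single early libraries called. Among regions called in both untreated libraries and in no GH library, 18.8% had a peak in the 30 min list and 19.0% in the 90 min list, less than the members. Both lists held 54 members, the 30 min list alone 40, the 90 min list alone 48, and neither list 89. Thus 142 of the 231 regions were detectable early once the reads of a time were pooled, and a description of the whole set as lost would go against these lists.

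The peaks that members had in the combined early lists were low. Their median fold was 3.87 (2.29 to 5.66) at 30 min and 3.83 (2.7 to 5.57) at 90 min, at median percentiles of 14.7 and 15.4. In the combined untreated and 240 min lists, which held all 231, median folds were 4.89 and 6.18, at percentiles of 48.1 and 49.2. Combined lists differ in tags and length, so these percentiles place members within each list and measure no change between times. The 89 members in neither combined list had a median mean percentile of 26.5 in the defining lists and the other 142 one of 34.5.

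The highest-ranked member lay in an intron of Ank3, which encodes ankyrin-G, an adaptor between membrane proteins and the cytoskeleton. Its fold was 9.11 and 8.06 in the untreated pools and 13.7 and 7.71 at 240 min. It was called in all 6 female libraries, at 5.25, 6.67, 5.85 and 6.35 in intact and 7.64 and 9.02 in hypox pools, so that the hypox female values lay above all intact ones. The combined early lists held it at 3.64 (30 min) and 4.06 (90 min). A second Ank3 member in the same gene ranked 89th and held a STAT consensus. Its folds were 4.14 and 4.47 untreated and 8.22 and 5.58 at 240 min, and 3 of 4 intact and 1 of 2 hypox female libraries called it. The combined early lists held this second region at 4.11 (30 min) and 3.91 (90 min).

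The second-ranked member was intergenic, 165 kb from the start of Npr3, the clearance receptor for natriuretic peptides. Its fold was 7.95 and 8.22 untreated, 7.93 and 6.88 at 240 min, 7.54, 5.75, 9.62 and 12.96 in intact females and 5.84 and 7.55 in hypox females. The male values lay within the range of the intact ones. The combined 90 min list held this region at 3.38, and the 30 min list did not hold it. The third-ranked member was intronic in Plb1, a phospholipase gene. Its fold was 7.3 and 7.37 untreated and 8.07 and 7.09 at 240 min. The 4 intact female libraries called it at 7.27, 7.32, 6.25 and 5.39, and neither hypox female library did, while the combined hypox female list held it at 4.75. The Plb1 region was also in both combined early lists, at 4.55 and 5.0.

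Regions in an intron of Nckap5 and 152 kb from Krr1, a gene of ribosome assembly, were called in all 10 libraries outside the early times. In Nckap5 the fold was 7.89 and 6.73 untreated, 9.57 and 6.23 at 240 min, 13.27, 6.43, 12.2 and 9.95 in intact females and 5.65 and 6.11 in hypox females. All 4 intact values exceeded both hypox female values. Near Krr1 it was 8.64 and 5.68 untreated, 7.2 and 7.91 at 240 min, 10.89, 8.59, 9.63 and 13.09 in intact and 6.49 and 6.67 in hypox females, again without overlap between the female groups. How often the female groups separate this way over all regions was not counted. The order was not tested and sets none of the regions named here apart. A region 19.7 kb from Gldc, the glycine decarboxylase gene of amino acid catabolism, gave 7.33 and 10.13 untreated, 5.93 and 7.01 at 240 min, 13.25, 8.12, 8.7 and 13.27 in intact and 5.56 and 7.55 in hypox females. These 3, with the first Ank3 region and the Npr3 neighbour, were the highest-ranked of the 36 members called in all 10 libraries. The combined 30 and 90 min lists held the Nckap5 region at 4.32 and 3.83 and the Krr1 neighbour at 4.78 and 4.51. The Gldc neighbour was in the combined 90 min list alone, at 4.28.

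Another 4 regions completed the 10 of highest rank. The Sulf2 promoter, at a gene for a heparan sulfate sulfatase, gave 8.69 and 6.52 untreated, 8.11 and 6.17 at 240 min, 12.04, 8.0, 10.79 and 13.96 in intact and 4.68 and 4.52 in hypox females. An intron of Angpt4, which encodes a ligand of the TIE2 receptor, gave 7.65 and 5.42 untreated, 10.56 and 6.51 at 240 min and 10.09, 8.16, 10.24 and 14.77 in intact females, and no hypox female library called it. The combined early lists held no peak there. An intron of Zfpm1, a cofactor of GATA factors, gave 4.76 and 6.94 untreated, 10.92 and 8.33 at 240 min, 7.49, 7.42, 5.24 and 8.44 in intact and 5.06 and 7.47 in hypox females. An intron of Bsn, a gene best known from the presynaptic active zone of neurons, gave 4.97 and 6.62 untreated, 12.13 and 7.04 at 240 min, 11.69, 9.58, 7.92 and 11.99 in intact females and 9.52 in 1 hypox female library. At 240 min, pool 1 gave the higher fold of the 2 pools in 8 of these 10 regions. The combined early lists held the Zfpm1 region at 3.19 (30 min) and 3.73 (90 min). Sulf2 was in the combined 30 min list alone, at 4.22, and Bsn was in neither.

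**Figure D3:**
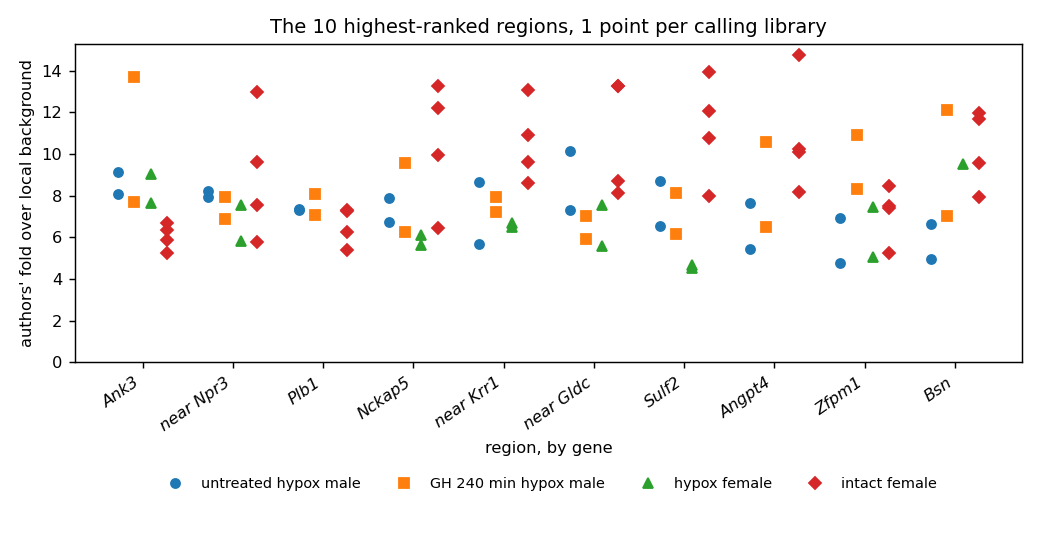
The authors' peak fold, a linear scale from 0, of the 10 highest-ranked regions, with 1 point for each library that called the region; circles are untreated hypox males, squares hypox males at 240 min, triangles hypox females and diamonds intact females. Intact female points reach 14.77 at Angpt4 and lie above both hypox female points at Nckap5, Krr1, Gldc and Sulf2, while at Ank3 they lie below them. How often this happens over all regions was not counted.

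Most members were distal. A promoter, here up to 1000 bp from a transcription start in either direction, held 35 of 231 (15.2%), against 26.1% of all regions, 51.0% of those called in all 8 male libraries, 26.8% of the 638 called untreated and in no GH library, and 9.64% of the 467 called only at 30 and 90 min. Introns held 108 members (46.8%) and intergenic sequence 84 (36.4%), with 1 in a coding exon and 3 in other exons. The median distance to a protein-coding start was 11.4 kb for members, 10.5 kb for all regions and 1.05 kb for regions of all 8 male libraries. Median GC content was 50% in members and 54.5% in regions of all 8 male libraries, and 8.23 and 41.9% of them had at least 10 CpG sites in the window. Members lay on all 20 chromosomes considered, at 0.223% of regions on chromosome 16 to 0.74% on chromosome 8.

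The 5 highest-ranked promoters belonged to Sulf2, Ssbp3, G0s2, Mif and Bbs5. Ssbp3, a cofactor of LIM-domain transcription complexes, was even across the libraries that called it: 7.42 and 6.57 untreated, 6.14 and 6.34 at 240 min, 5.78 to 6.8 in intact and 5.71 and 5.16 in hypox females. The combined early lists held the Ssbp3 promoter at 4.55 (30 min) and 5.19 (90 min). G0s2, an inhibitor of adipose triglyceride lipase, gave 5.47 and 4.91 untreated, 7.32 and 6.06 at 240 min, 7.36 and 5.41 in intact pools 1 and 4 and 8.44 and 4.64 in hypox females. Its lowest −log10 q was 12.32, and neither combined early list had a peak. Mif, a cytokine gene, gave 5.18 and 6.46 untreated and 6.02 and 5.76 at 240 min. No single female library called it, while the combined lists held it at 6.11 in hypox and 3.74 in intact females. The combined 90 min list also held it, at 4.73, and the 30 min list did not. Bbs5, a subunit of a complex of cilia, gave 6.29 and 5.21 untreated and 6.05 and 5.3 at 240 min, and 3 intact and 1 hypox female libraries called it. Neither combined early list held the Bbs5 promoter.

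The Cyp1a2 promoter, picked after its values were seen, lay just upstream of the start of this cytochrome P450 of drug metabolism. All 10 libraries outside the early times called it, at 6.4 and 6.74 untreated, 4.02 and 5.11 at 240 min, 5.81 to 6.99 in intact and 5.56 and 6.68 in hypox females. Neither combined early list held a peak there, and its lowest −log10 q was 3.96, at 240 min. Fold was thus lower in both 240 min pools than in the other 8 libraries. Other members at genes of liver metabolism, also picked after their values were seen, were an intron of Ces1b, a carboxylesterase gene, a site 1.21 kb upstream of Hsd3b3, a steroid dehydrogenase gene, and the Crat promoter, at the gene of carnitine acetyltransferase, which lies just upstream of Ppp2r4, an activator of phosphatase PP2A. Their folds were 6.16, 7.76, 8.05 and 6.23 for Ces1b, 5.88, 8.63, 7.67 and 6.2 for Hsd3b3 and 3.91, 3.46, 6.45 and 5.52 for Crat, untreated before 240 min. Crat had a lowest −log10 q of 16.98, above that of every one of the 10 highest-ranked members. The combined 30 min list held the Hsd3b3 site at 4.1, and neither combined early list held the Ces1b or Crat region.

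Genes were linked to regions that lay within the gene or up to 10 kb upstream of it. Members were linked to 174 genes, 1.26% of the 13856 genes linked to any region, and 77 members were linked to none. Of the 174 genes, 114 also had a region called in all 8 male libraries, 14 a region called untreated and in no GH library, and 2 a region called only at 30 and 90 min. Of all 13856 genes, 8897 had a region called in all 8 male libraries, a share near that of the 174. A region called only at 30 and 90 min was linked to 318 of the 13856. For regions called untreated and in no GH library this number was not counted, so the 14 stand without a comparison. The gene model Gm20388 on chromosome 8 held 7 members. It overlaps Zfpm1, Gse1 and Galnt2 among others. Another 8 genes had 2 each: Ank3, Etnk2, Ppp2r4, Sco2, Sh3pxd2a, Tymp, Utrn and Zfpm1. Etnk2 encodes an ethanolamine kinase of phospholipid synthesis, with folds of 4.6 and 3.3 untreated and 4.34 and 4.11 at 240 min upstream of the gene and 3.38, 3.5, 4.67 and 3.34 in its intron. The members of Sco2, a copper chaperone of mitochondria, were shared with its neighbour Tymp, thymidine phosphorylase. A total of 8 neighbouring pairs of members lay within 50 kb, and 84 members lay within 10 kb of a region called in all 8 male libraries. These distances were not counted over all regions, so they describe the members only.

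Of 253 genes in 20 lists, 226 had a linked region and 1 was linked to a member. This was Nr5a2, the nuclear receptor LRH-1, which regulates bile acid and cholesterol genes, in the list of bile acid and sterol hydroxylases (1 of 13). No gene had a member among 10 direct GH and STAT5 targets, 8 regulators of the GH pattern, 20 male-biased and 20 female-biased liver genes, 16 hepatocyte genes, 20 of gluconeogenesis and glycogen or 12 glucocorticoid-responsive ones. The same held for lipogenesis (22), fatty acid oxidation (20), thyroid (8), clock (15), immediate-early (20), urea cycle (18) and ubiquitous genes (10), and for all 38 markers of endothelial, stellate, Kupffer, lymphoid and bile duct cells. Over all genes with a linked region, 1.26% were linked to a member. Lists this short would mostly hold no such gene at that share, so these absences set no list apart. In whole liver, a change in cell makeup and a change of accessibility within cells cannot be told apart. The Nr5a2 region lay 763 bp from a start of the gene, with folds of 3.79 and 3.09 untreated, 4.04 and 3.82 at 240 min, 4.07 to 4.72 in intact females and 4.18 in hypox female pool 2. It ranked 226th of 231, and the combined 90 min list held it at 2.7. By nearest start instead of linkage, 8 listed genes had a member, among them Cyp8b1, a sterol hydroxylase of bile acid synthesis, at 10.5 kb, Dgat2, of triglyceride synthesis, at 26.2 kb, and Cyp2d9, a male-biased cytochrome P450, at 5.3 kb. The others were Nr5a2, Insig1 at 24.3 kb, Foxa2 at 140 kb, Gadd45g at 179 kb and Dcn at 230 kb. By this rule members had 220 nearest genes, and the share over all genes was not counted.

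The 6 female libraries took no part in the selection. Members were called in 89.2, 69.3, 62.8 and 93.9% in intact female pools 1 to 4, against 57.1, 47.2, 43.6 and 72.1% of all regions. In hypox female pools 1 and 2 they were called in 40.7 and 64.1%, against 35.1 and 51.1% of all regions. The mean was 78.8% ± 15.1 (SD, n = 4) in intact and 52.4% ± 16.5 (SD, n = 2) in hypox libraries. The difference of 26.4 percentage points gave p = 0.267 in a two-sided exact permutation test over the 15 divisions of these libraries, where the smallest possible p is 0.133. Intact pools 2 and 3 and hypox pool 2 lay close together, so the groups overlapped. Within code G92 alone the difference was 26.8 points, and without hypox female pool 1, which had the shortest list of all (17691 peaks), it was 14.7 points. List length moved with the share, from 21583 to 35851 peaks in intact and 17691 and 25595 in hypox females, and with the female lists reduced to equal length the difference was 19.3 points (exact two-sided permutation p = 0.133).

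**Figure D4:**
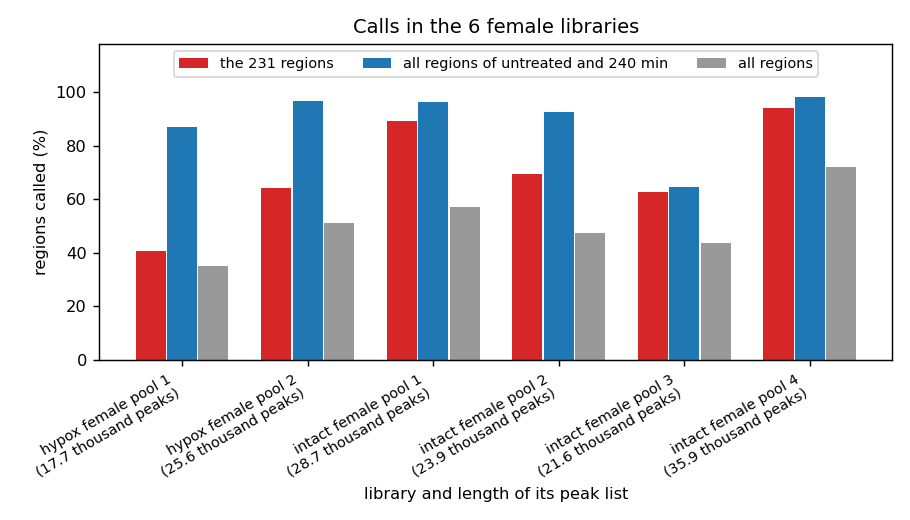
Percent of regions called in each of the 6 female libraries for the 231 members, for the 15443 regions called in both untreated and both 240 min male libraries, and for all 48148 regions, with the number of peaks of each list on the x axis. Bars of the members are 0.468 and 0.662 of those of the 15443 regions in the hypox females and 0.75 to 0.971 of them in the intact females.

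Set against the 15443 regions of the untreated and 240 min males, the members were called 0.925, 0.75, 0.971 and 0.958 times as often in intact pools 1 to 4 and 0.468 and 0.662 times as often in the hypox pools. Every intact ratio exceeded both hypox ratios, with an exact two-sided permutation p of 0.133, the smallest that 6 libraries allow. By the number of early calls, the share of regions called in both hypox female libraries was 29.0, 36.8, 51.8, 68.1 and 92.7% from 0 to 4. Over the same steps the share called in all 4 intact libraries was 50.6, 51.6, 50.6, 51.8 and 63.9%. Intact pool 3 stood apart, with calls in 65.6% of the regions of all 8 male libraries against 96.1 to 99.0% in the other intact pools. Without it, the share called in the other 3 intact libraries was 66.7, 66.5, 68.5, 75.5 and 95.2%.

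Of the 231 members, 67 were called in both hypox female libraries (29.0%, against 32.8% of all regions), 108 in 1 (46.8%, against 20.6%) and 56 in none (24.2%, against 46.6%). All 4 intact libraries called 117 (50.6%, against 28.6% of all regions), 3 called 59 (25.5%, against 19.8%) and 2 called 34 (14.7%, against 12.5%). Only 1 intact library called 15 (6.49%, against 21.1%), and none called 6 (2.6%, against 17.9%). All 6 female libraries called 36 members (15.6%, against 18.9% of all regions and 53.6% of the 15443). All 4 intact and neither hypox female library called 26 (11.3%, against 4.11% of all regions), among them the introns of Plb1, Angpt4 and Camk1d. Of these 26, 17 had a peak in the combined hypox female list. Both hypox and no intact library called 1 (0.433%, against 0.594% of all regions), in an intron of Pitpnm2. The members called in no single female library numbered 3 (1.3%, against 12.4% of all regions), namely the Mif promoter, a region in an intron of Wee1, a kinase gene of the cell cycle, and the region near Cyp2d9. The Cyp2d9 region had folds of 7.79 and 4.78 untreated and 5.25 and 4.67 at 240 min, and no peak in the combined early lists. The combined female lists held the Mif promoter and neither of the other two. These regions were named after their values were seen.

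Where the female libraries called them, which was 94 to 217 members, they had a median percentile of 44.3, 38.7, 57.2 and 57.7 in intact pools 1 to 4 and 21.9 and 30.1 in hypox female pools. Median folds were 5.99, 5.36, 6.47 and 6.49 in intact and 4.89 and 5.13 in hypox females. In the combined intact list, called on 68187384 tags, 227 of the 231 members had a peak (98.3%, against 85.3% of all regions), at a median percentile of 65.4. In the combined hypox female list 200 had one (86.6%, against 56.2%), at 33.4. These lists differ in depth, so the percentiles rank members within each list only.

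The STAT consensus was rare in the members. TTCNNNGAA, searched on both strands in the 200 bp around the summit, occurred in 5 of 231 members (2.16%), against 9.16% of all regions, 7.37% of those called in all 8 male libraries, 3.13% of those called untreated and in no GH library and 51.0% of those called only at 30 and 90 min. A control with a gap of 2 bases in place of 3 occurred in 2.16, 5.62, 4.95, 6.11 and 10.7% of these classes in the same order, so that in this window of members it was as frequent as the true spacing. A control with a gap of 4 bases occurred in 1.73% of members and 5.2% of all regions. The 5 members with a match lay in introns of Nav2, Ank3 and Sctr, in the Arhgef7 promoter and between genes on chromosome 7. The Nav2 region was called in all 10 libraries, with folds of 7.25 and 6.55 untreated and 8.42 and 6.04 at 240 min. Over the whole region instead of 200 bp, 7.36% of members and 18.7% of all regions held a match. There the control with a gap of 2 bases occurred in 14.7 and 14.8%, and that with a gap of 4 bases in 11.3 and 13.1%. Over whole regions both controls were thus more frequent in members than the true spacing. With so few matches the share in the 200 bp window rests on 5 regions.

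Consensus sequences of liver factors differed in how their share in members compared with that in all regions. Because promoters differ in sequence and members hold few of them, shares outside promoters are given next, over 196 distal members and 35605 distal regions. The HNF6/CUX consensus ATCAATA occurred in 7.65% of distal members and 5.19% of all distal regions, and in 0.642% of the distal regions called untreated and in no GH library. HNF1 (GTTAATNAT) occurred in 5.1, 2.61 and 0.642%, and HNF4A (CAAAGTCCA) in 3.06, 2.05 and 1.07% of the same classes. The hexamer AGGTCA of nuclear receptors occurred in 33.2, 26.7 and 30.0%, and its inverted repeat with 1 base between (GGTCANTGA), which overlaps the hexamer, in 3.57, 1.39 and 0.642%. C/EBP (TTGCNNAA) occurred in 18.4, 17.7 and 15%, the glucocorticoid receptor consensus (ACANNNTGT) in 8.67, 7.64 and 6.85% and AP-1 (TGANTCA) in 8.16, 8.86 and 6.0%. FOX factors went the other way for TGTTTAC, at 5.1, 7.04 and 7.49%, and TGTTTGC occurred in 8.67, 8.49 and 8.99%. In the distal regions called in all 8 male libraries, shares were 5.03% for HNF6/CUX, 3.72% for HNF1, 2.97% for HNF4A, 29.7% for the hexamer and 1.7% for its inverted repeat. There C/EBP was at 21.1%, the glucocorticoid receptor at 7.65%, AP-1 at 9.3%, TGTTTAC at 8.39% and TGTTTGC at 9.76%. C/EBP, AP-1 and both FOX sequences were thus more frequent there than in distal members, and the HNF4A share was close to theirs.

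**Figure D5:**
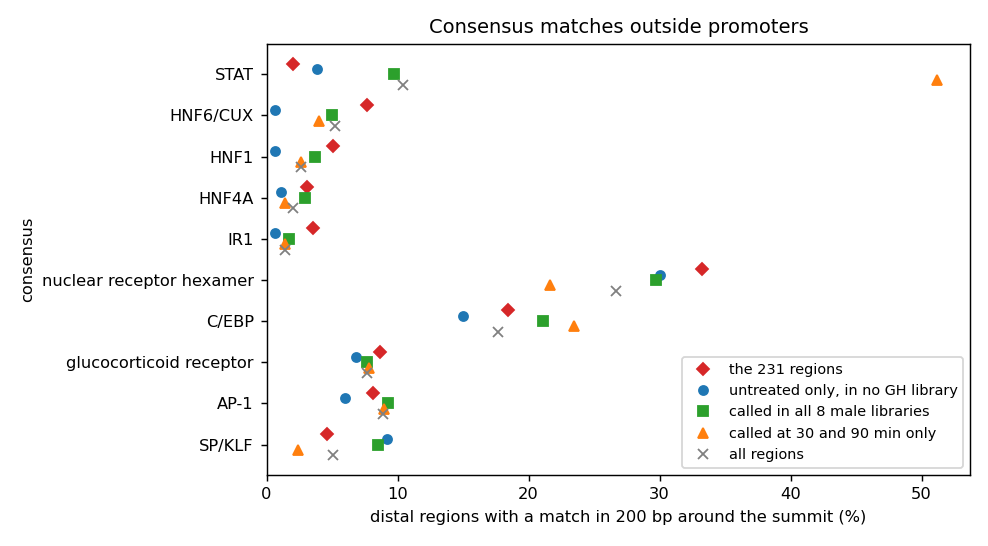
Percent of distal regions, those over 1000 bp from a transcription start, with a match to each of 10 consensus sequences in 200 bp around the summit, for the 231 members (196 distal) and 4 other classes. The STAT consensus separates the regions called only at 30 and 90 min (51.2%) from the members (2.04%), and the HNF6/CUX and HNF1 points of the members lie above those of the regions that were called untreated and in no GH library.

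In counts, the members with HNF6/CUX were 17, with HNF1 11, with HNF4A 7 and with the inverted repeat 8, so 1 region more or less moves each share visibly. The hexamer, at 71 of 231, was the most frequent of the liver consensuses, and its share in members was 30.7% with promoters included, against 22.8% of all regions. At least 1 of 10 consensuses (the hexamer, its inverted repeat and a direct repeat, GGTCANAGG, HNF6/CUX, HNF4A, HNF1, C/EBP, the glucocorticoid receptor, and TGTTTAC and TGTTTGC of FOX factors) occurred in 149 members (64.5%), against 49.8% of all regions, 46.7% of those called untreated and in no GH library, 42.9% of those called in all 8 male libraries and 56.7% of those called only at 30 and 90 min. Outside promoters these shares were 67.3% of members, 58.0% of all regions, 55.2, 63.2 and 57.3%, in the same order. With promoters included, GGGCGG of SP/KLF factors occurred in 8.66% of members and 16.3% of all regions and NRF1 (GCGCANGCG) in 0.433 and 2.92%. Outside promoters the shares lay close together, at 4.59 and 5.11% for SP/KLF and 0.51 and 0.376% for NRF1. With promoters included, ETS (CCGGAAG) occurred in 3.9 and 4.34%, and the E-box (CACGTG) went the other way, at 7.79 and 5.4%. A match describes letters in a window and does not show that a factor was bound.

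The members in neither combined early list, which have the least sign of an early peak, are set here beside the others. Of these 89, 10.1% lay in promoters, 51.7% were called in all 4 intact and 24.7% in both hypox female libraries, and 31.5% held the hexamer AGGTCA. For the 142 with a peak in a combined early list, these shares were 18.3, 50, 31.7 and 30.3%. In this smaller set, intact female libraries called 32.9 percentage points more of the regions than hypox female libraries did, with an exact two-sided permutation p of 0.133, the smallest possible. All 4 intact libraries thus called a larger share of these 89 regions than either hypox female library.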

How the data were processed

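DNase-seq peak lists of 14 liver libraries in 6 groups were used. The submitters' processing notes name Bowtie2 and the build mm9. MACS2 2.1.0.20150731 made the peak lists at a q cutoff of 0.05 and with no control, per the file headers. The authors deposited for each peak a pileup signal, a linear fold enrichment (a ratio to the local background), a −log10 q value and a −log10 p value, for each library and for the combined libraries of a group. The −log10 p was used to filter peaks, from single-library lists. Each fold is the peak's own value as deposited, used here for description and ranking inside 1 list. A count model was not possible on such lists.

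Peaks of 339551 calls were merged at 1 bp. Absence of a call means not detected at that depth and threshold. Libraries held 13078268 to 33700120 tags, per the file headers. Regions were placed by summit with GENCODE vM1 on the same build, and 21 consensus sequences were searched on both strands. The only tests were two-sided exact permutation tests over female libraries, in an unpaired and a paired form (SciPy 1.17.1, Python 3.11.15). The search and merging steps were tested on simulated data. Pools are the replicates, and each p-value sets the observed difference against those obtained when pools are reassigned between groups.

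Named regions were the 10 of highest mean percentile of fold, those linked to listed genes, the 5 highest called in all 10 libraries outside the early times, the 5 highest promoters, the 3 nearest to the threshold on each side and up to 5 genes with most members. The regions and lists were chosen with earlier results of these data known.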

Additional observations from a re-analysis of the deposited data

How the results depend on the processing

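Membership depended on the threshold and on the length of the lists. Requiring −log10 p of at least 10 in the 4 defining lists left 35 members, and requiring absence from the combined early lists left 89. With every list reduced to 17681 peaks by −log10 p, 214 regions met the rule, of which 56 were among the 231 (24.2%). Merging at 100 bp gave 234 and the peaks of hypox male pool 2 as regions gave 242, which held 231 and 228 of the members. Leaving out 1 male library gave 270 to 852 members. The promoter share was 25.5% with promoters of 2500 bp, 10.1% among the 89 members absent from the combined early lists, and 14.4 to 20% without 1 male library. The last 2 settings were added after seeing the data, as were the other settings that apply the 89 regions and the share without intact pool 3. With the same 231 members and only the female calls filtered, the share called in both hypox female libraries was 10.4% at −log10 p of at least 10 and 17.7% with lists of equal length. On that basis the intact minus hypox female difference was 34.6 points with −log10 p of at least 10 (exact permutation p = 0.133), 19.3 with lists of equal length (p = 0.133) and 14.7 to 38.1 without 1 female library, where the lone hypox library left has no replicate. With pools 1 and 2 paired by number (replicate block) it was 26.8 points, with an exact sign-flip permutation p of 0.5, the smallest that 2 pairs allow, and nothing in the labels shows that equal numbers pair the pools. Of the 30 named members, 19 stayed with lists of equal length, 16 with −log10 p of at least 10 and 9 with absence from the combined lists. Depth limits each absent call.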
